A study of Mus musculus with 14 samples.

Results

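A class of 10 secreted regulators of Wnt signalling was followed in fibroblasts grown out of mouse skin and lung: the R-spondins Rspo1, Rspo2 and Rspo3, the secreted frizzled-related proteins Sfrp1, Sfrp2, Sfrp4 and Frzb, the Dickkopf proteins Dkk2 and Dkk3, and Wif1. These are 10 of the 48795 genes in the count table, and all 10 passed the filter on low counts among the 16408 genes tested. They form a functional class, and its members were chosen with earlier results of these data known. The cultures compared mice without c-Rel (Rel -/-, an NF-kappaB family transcription factor) with wild-type mice. Both were described as C57BL/6J males of 8 to 10 weeks, and the series title sets the question in fibroblast matrix production in systemic sclerosis. Pieces of dorsal skin or of lung were left to adhere to plastic in serum medium without stimulation, and the outgrown cells were scraped off at day 14. There were 3 libraries from Rel-null skin (18, 19 and 20), 2 from wild-type skin (11 and 22), 4 from Rel-null lung (7, 8, 9 and 10) and 5 from wild-type lung (1, 23, 3, 4 and 5), and values below follow that order of libraries. The labels give the genotype as Rel -/- and name no driver or clone. They do not tie libraries to animals, and the spread behind each p-value is therefore that between libraries and may be technical.

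Wnt proteins bind frizzled receptors together with the LRP5 and LRP6 coreceptors and stabilise beta-catenin. R-spondins are secreted agonists: through LGR4, LGR5 and LGR6 they remove the ubiquitin ligases RNF43 and ZNRF3, which would otherwise clear frizzled receptors from the surface. The antagonists act outside the cell by different routes. Secreted frizzled-related proteins, among which Frzb counts as a member, carry a frizzled-like cysteine-rich domain and bind Wnts, WIF1 binds Wnts through its own domain, and Dickkopf proteins of the DKK1 and DKK2 type bind LRP5 and LRP6. Mesenchymal cells are a main source of these proteins in lung and in skin, where Wnt signals take part in epithelial renewal, hair follicle growth and fibrosis.

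Sequences around the annotated start sites were available for 5 of the 10 genes (Frzb, Sfrp2, Dkk2, Rspo1 and Wif1) in RefSeq, build GRCm38.p6, from 250 bases before to 50 bases after the start. The promoters of Dkk2 and Rspo1 are printed because these genes stood on opposite sides of the comparison of skin with lung. Capitals mark matches to the motifs searched. In Dkk2 (chr3:132085042-132085341, plus strand) they mark CTTTG, the core bound by the TCF/LEF partners of beta-catenin, and TATAAA. In Rspo1 (chr4:124986180-124986479, plus strand) they mark the kappaB motif, the element bound by c-Rel and its relatives.
Dkk2: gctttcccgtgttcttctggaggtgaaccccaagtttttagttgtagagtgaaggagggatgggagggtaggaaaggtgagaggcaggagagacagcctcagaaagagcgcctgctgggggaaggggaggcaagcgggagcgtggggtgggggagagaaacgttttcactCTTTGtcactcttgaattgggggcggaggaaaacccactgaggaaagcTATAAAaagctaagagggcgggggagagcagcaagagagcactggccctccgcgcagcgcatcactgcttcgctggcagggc
Rspo1: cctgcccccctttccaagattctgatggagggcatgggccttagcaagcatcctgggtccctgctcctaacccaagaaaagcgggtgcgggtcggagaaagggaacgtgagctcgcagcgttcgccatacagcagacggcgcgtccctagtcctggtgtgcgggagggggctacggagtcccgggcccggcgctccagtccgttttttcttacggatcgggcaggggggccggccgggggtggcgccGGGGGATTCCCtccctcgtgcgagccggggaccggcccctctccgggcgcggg
In Dkk2 the CTTTG match began 80 bases and the TATAAA match 32 bases before the start. In Rspo1 a pair of overlapping kappaB matches began 3 and 2 bases before the start. Of 32817 mouse promoters of the same length, 54.0% held CTTTG on either strand, 8.32% held TATAAA on the given strand and 4.50% held the kappaB motif on either strand. Among the other 3 genes with a sequence, Frzb and Wif1 each held 1 CTTTG, and Frzb held 1 and Wif1 held 2 matches to CANNTG (the E-box, on either strand and found in 72.3% of promoters). A match is a string of letters and was not tested as a binding site.

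Library totals ran from 12780350 to 30987933 counts, apart from wild-type skin 22 with 2663437. Several libraries stood apart. Rel-null lung 10 carries a treatment label that says skin, although its title and source say lung, and it was kept with lung. Rel, the deleted gene, read 0.0349, 9.42 and 9.47 CPM (counts scaled in the usual way to each library's total) in Rel-null skin, against 11.5 and 10.9 CPM in wild-type skin, so the libraries labelled Rel-null skin 19 and 20 were near the wild-type level. In lung it read 0.0651, 4.06, 1.39 and 3.80 CPM in Rel-null libraries, against 6.27, 17.3, 12.9, 1.10 and 12.4 CPM in wild-type libraries. Wild-type lung 4 thus read less Rel than Rel-null lung 8, 9 and 10, and no set of lung libraries was left out for its Rel level. Directions given for Rel-null cultures follow the labels. Wild-type lung 1 and wild-type skin 22 read 64.5 and 732 CPM of Xist, a transcript of female cells, although the mice are described as male. Ddx3y, a gene of the Y chromosome, read 0 and 1.13 CPM in them, against 34.0 to 177 CPM in the other libraries. In 4 libraries a larger share of expressed genes was at 0 counts: 3.37% in Rel-null skin 18, 8.22% in wild-type skin 11, 11.5% in Rel-null lung 7 and 5.78% in wild-type lung 4, against at most 0.728% elsewhere. These 4 also had the most of the 10 genes at 0 counts, namely 4, 3, 4 and 3 genes, where the other libraries had 0 or 1.

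Fibroblast markers were read in every group, with 9 of 9 at 1 CPM or more in a library. Their sum was 11581 to 26595 CPM in Rel-null skin and 21174 to 39185 CPM in wild-type skin, against 25261 to 65572 CPM in Rel-null lung and 29440 to 130869 CPM in wild-type lung. The median sum was thus lower in skin in both genotypes, with overlapping ranges. It does not stand for each gene of the list, and Thy1 ran the other way. Thy1 read 786 to 1215 CPM in Rel-null and 561 to 1308 CPM in wild-type skin. In lung it read 95.8 to 258 CPM in Rel-null and 83.7 to 250 CPM in wild-type libraries. The levels of Rspo3 and Sfrp1 were also lower in skin, and the part of the marker sum in those differences was not tested. The dermis list (8 genes) summed to 1265 to 1514 CPM in Rel-null skin and 940 to 1425 CPM in wild-type skin, against 233 to 287 CPM in Rel-null lung and 224 to 464 CPM in wild-type lung. The lung mesenchyme list (8 genes) overlapped between the tissues in both genotypes. In skin it summed to 72.8 to 148 CPM in Rel-null and 99.9 to 185 CPM in wild-type libraries. In lung it summed to 109 to 290 CPM in Rel-null and 165 to 307 CPM in wild-type libraries. Lung cultures also read leukocyte and macrophage markers (12 genes) at 8079 to 24527 CPM in Rel-null and 4705 to 19595 CPM in wild-type libraries, against 104 to 144 CPM in Rel-null skin and 45.1 to 101.8 CPM in wild-type skin. Rel-null skin read keratinocyte markers (11 genes) at 1026 to 2695 CPM, against 20.7 to 39.1 CPM in wild-type skin. Krt5, Krt14, Krt15, Krt17, Dsg3, Sfn, Cdh1 and Epcam were higher in every Rel-null than in every wild-type skin library. Trp63 (0.469 to 3.70 against 0 and 6.01 CPM) and Krt10 (0.906 to 2.29 against 0 and 3.00 CPM) overlapped. Krt1 was at 0 in all skin. In these bulk cultures fewer cells of a type and less RNA per cell cannot be told apart.

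**Figure D1:**
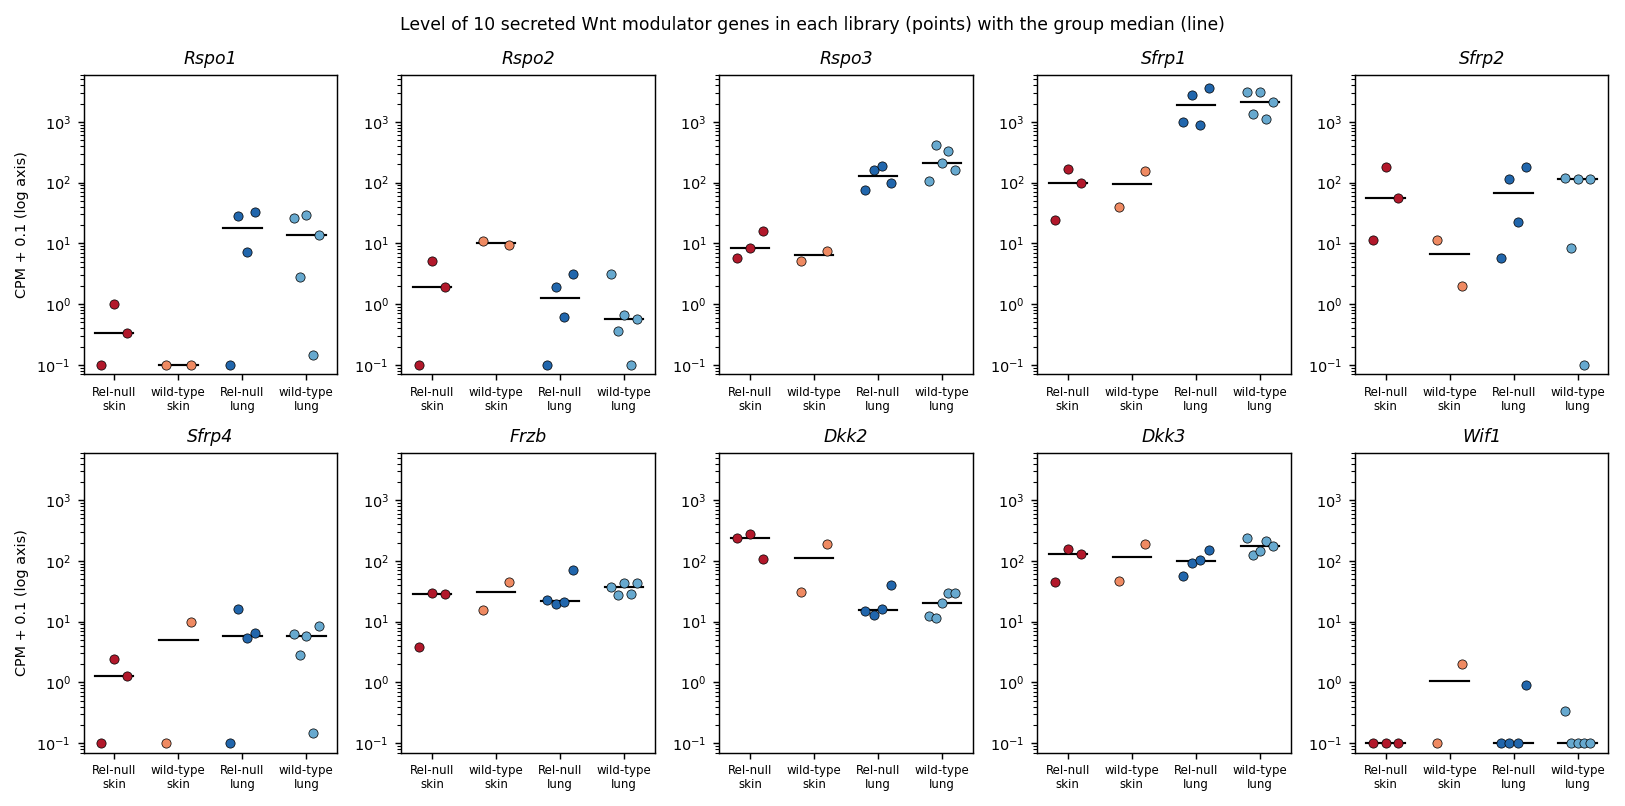
Level of each gene in every library, as CPM + 0.1 on a log axis, with points for single libraries and lines for group medians, from Rel-null skin on the left to wild-type lung on the right. Rspo3 and Sfrp1 lay lower in all skin than in all lung libraries, and Dkk2 was higher in every skin library except wild-type skin 11 (30.5 CPM) than in every lung library.

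No gene of the 10 passed the test between Rel-null and wild-type cultures, and the calls were between tissues. Rspo3 and Sfrp1 fell in skin relative to lung in both genotypes, and Dkk2 rose in Rel-null skin relative to Rel-null lung. By edgeR (quasi-likelihood test, Benjamini-Hochberg adjustment over all genes, threshold 0.05), 3 of 10 differed between Rel-null skin and Rel-null lung, where 5.05% of all genes tested did. Between wild-type skin and wild-type lung 2 of 10 differed, against 2.97% of all genes. For the mean of both genotypes, 4 of 10 differed between skin and lung (Rspo1, Rspo3 and Sfrp1 lower, Dkk2 higher), against 10.4% of all genes. The median log2 fold change of the 10 was -1.79 for Rel-null and -0.71 for wild-type skin over lung, where the medians of all genes were -0.01 and -0.13. The wild-type and Rel-null contrasts share no library, but both come from 1 fit whose spread was estimated over all 14 libraries. The mean of genotypes uses both contrasts and adds no further libraries. The ranges of skin and lung libraries did not overlap for 3 of 10 in Rel-null cultures (Rspo3, Sfrp1 and Dkk2), where 20.9% of all genes did not. In wild-type cultures they did not overlap for 5 of 10 (those 3 with Rspo1 and Rspo2), against 19.0% of all genes. Over all skin and all lung libraries Rspo3 and Sfrp1 did not overlap, 2 of 10 against 5.08% of all genes. The members were chosen with earlier results of these data known, so none of these counts tests the class against all genes.

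Of the R-spondins, Rspo3 had the highest median per kilobase of exon in both lung groups. Rspo3 (ENSMUSG00000019880, GRCm38 chromosome 10, 29452416-29535867, minus strand) read 5.65, 8.21 and 15.96 CPM in Rel-null skin and 4.95 and 7.51 CPM in wild-type skin. In lung cultures it read 74.3, 158, 184 and 98.1 CPM in Rel-null libraries and 107.9, 408, 211, 331 and 158 CPM in wild-type libraries. Every skin library lay below every lung library, and within each tissue the genotypes overlapped. By edgeR the log2 fold change of skin over lung was -3.84 ± 0.51 (SE, adjusted p = 2.80e-04) in Rel-null and -5.48 ± 0.67 (adjusted p = 3.67e-04) in wild-type cultures. The wild-type call was lost with limma-voom (log2 fold change -5.25, adjusted p = 0.153, where the alternatives that keep every library or drop several gave 2.22e-20 to 0.153 and those that drop 1 gave 1.87e-04 to 0.0132). An antisense gene, Gm48159, and an unclassified gene on the same strand, Gm20276, overlap Rspo3, and how reads were assigned among them is not known.

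Rspo3 also had the lowest unadjusted p of the 10 between genotypes in lung. It averaged 129 ± 51.3 CPM in Rel-null lung (SD, n = 4) and 243 ± 124 CPM in wild-type lung (SD, n = 5). The log2 fold change was -0.89 ± 0.39 by edgeR (unadjusted p = 0.0358, adjusted p = 0.781), which does not pass. In skin it averaged 9.94 ± 5.37 CPM in Rel-null (SD, n = 3) and 6.23 ± 1.81 CPM in wild-type libraries (SD, n = 2), a log2 fold change of 0.75 ± 0.56 (edgeR adjusted p = 0.851). The difference between these effects, skin minus lung, was 1.64 ± 0.68 (edgeR unadjusted p = 0.0296, adjusted p = 1.00). Without Rel-null skin 19 and 20 the skin effect was -0.042.

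Rspo1 (ENSMUSG00000028871, chromosome 4, 124986430-125009099, plus strand) was at or near 0 in skin and uneven among lung libraries. It read 0, 0.891 and 0.235 CPM in Rel-null skin, and 0 counts in both wild-type skin libraries, where 3 counts would be 0.129 CPM in library 11 and 1.13 CPM in library 22. Lung read 0, 28.6, 7.07 and 32.9 CPM in Rel-null and 25.7, 2.65, 28.9, 0.0442 and 13.7 CPM in wild-type libraries. The lung libraries at or near 0, Rel-null 7 and wild-type 4, are among those with many genes at 0 counts, and Rel-null 7 brings the Rel-null tissues to overlap. Wild-type skin 11 is also one of those libraries. Against 3 counts over both wild-type skin libraries (0.116 CPM), wild-type skin was at least 122.6-fold lower than the wild-type lung mean of 14.2 CPM. Without library 11 it was at least 12.6-fold lower. These bounds cover counting error in skin and not the spread of lung, where wild-type lung 4 lay below 0.116 CPM. By edgeR the log2 fold change of skin over lung was -5.67 ± 2.21 (adjusted p = 0.174) in Rel-null cultures, and the wild-type contrast did not pass (adjusted p = 0.195). The wild-type contrast passed without the low-count filter (edgeR adjusted p = 0.0482) and with DESeq2 (adjusted p = 0.00158), where single libraries left out gave 0.0802 to 0.717 and the other alternatives 0.00158 to 0.563.

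Rspo1 did pass for the mean of genotypes (edgeR log2 fold change -8.49 ± 2.33, adjusted p = 0.0302), a fitted value that rests on a group at 0. That call was lost with limma-voom (-6.69, adjusted p = 0.133), without the Xist-reading libraries (-8.32, adjusted p = 0.0988) and without Rel-null skin 19 and 20 (-11.46, adjusted p = 0.0702). Leaving out single libraries also ended it, for Rel-null skin 20 (-8.35, adjusted p = 0.0590), wild-type skin 11 (-8.45, adjusted p = 0.173), wild-type skin 22 (-8.54, adjusted p = 0.0777), Rel-null lung 8 (-8.30, adjusted p = 0.0530) or Rel-null lung 10 (-8.22, adjusted p = 0.0514). Over single libraries left out the edgeR adjusted p ran from 0.00810 to 0.173, and over the other alternatives from 5.87e-06 to 0.133. Between genotypes the log2 fold change in lung was 0.20 ± 1.49 (edgeR adjusted p = 1.00), and in skin the genotypes did not pass either (edgeR adjusted p = 0.825). Of the 17 counts in Rel-null skin, 14 came from library 19, which reads Rel near the wild-type level. An antisense gene, Gm12930, overlaps Rspo1.

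Markers of mesothelium, the lining of the lung surface, varied over the same lung libraries. The mesothelial marker Upk3b read 15.1, 121, 105 and 2.02 CPM in Rel-null lung and 85.04, 1.75, 79.5, 0 and 11.2 CPM in wild-type lung, and 0 in all 5 skin libraries. The list of 6 mesothelial genes summed to 7.16 to 327 CPM in Rel-null and 17.2 to 260 CPM in wild-type lung, against 15.2 to 51.3 CPM in Rel-null and 21.2 to 21.4 CPM in wild-type skin, with Upk3b, Wt1 and Lrrn4 at 0 in all skin. The 6 genes did not run together. Wt1 read 0, 7.26, 8.59 and 0.817 CPM in Rel-null lung and 13.8, 7.83, 16.3, 19.5 and 8.12 CPM in wild-type lung, so it was highest in wild-type lung 4, where Upk3b was at 0. Msln was also read in skin, at 4.33 to 13.8 CPM in Rel-null libraries and up to 16.1 CPM in wild-type skin 22. Rel-null lung 10 read the most Rspo1 with Upk3b near 0, and Rel-null lung 7 read no Rspo1 with Upk3b present. The part of these cells in the Rspo1 difference was not tested.

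Rspo2 (ENSMUSG00000051920, chromosome 15, 43020794-43170826, minus strand), an agonist known from hair follicle growth, was low throughout. Skin read 0, 5.03 and 1.80 CPM in Rel-null and 10.8 and 9.39 CPM in wild-type libraries. Lung read 0, 1.79, 0.521 and 3.03 CPM in Rel-null and 3.02, 0.265, 0.549, 0 and 0.475 CPM in wild-type libraries. Wild-type skin lay above all other libraries. Rel-null and wild-type skin did not overlap, as for 25.1% of all genes in that comparison of 3 with 2 libraries, and the log2 fold change of -2.10 ± 2.31 did not pass (edgeR adjusted p = 0.932). Skin over lung was 0.61 ± 1.93 in Rel-null (edgeR adjusted p = 0.938) and 3.22 ± 1.99 in wild-type cultures (edgeR adjusted p = 0.557).

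Summed over the 3 genes, R-spondin reads were 5.65 to 18.0 CPM in Rel-null skin and 15.7 to 16.9 CPM in wild-type skin, against 74.3 to 192 CPM in Rel-null lung and 137 to 411 CPM in wild-type lung. In lung most of the sum was Rspo3.

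Sfrp1 (ENSMUSG00000031548, chromosome 8, 23411502-23449632, plus strand), a Wnt-binding antagonist, had the highest level of the 10 in every lung library. Its values were 24.0, 165 and 96.8 CPM in Rel-null skin and 38.9 and 153 CPM in wild-type skin. Lung libraries read 1000, 2814, 889 and 3578 CPM in Rel-null and 3058, 1366, 3085, 1104 and 2115 CPM in wild-type cultures. The lowest lung value was 889 CPM and the highest skin value 165 CPM, so the tissues did not overlap. Skin fell relative to lung by edgeR with a log2 fold change of -4.58 ± 0.81 (adjusted p = 0.00282) in Rel-null and -4.79 ± 0.98 (adjusted p = 0.0118) in wild-type cultures. Without wild-type skin 11 the wild-type call was lost (-4.17, edgeR adjusted p = 0.144, where single libraries left out gave 0.00528 to 0.144 and the other alternatives 6.62e-09 to 0.0208).

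Sfrp1 did not pass between genotypes in either tissue. Rel-null lung averaged 2070 ± 1338 CPM (SD, n = 4) and wild-type lung 2145 ± 923 CPM (SD, n = 5), with a log2 fold change of -0.10 ± 0.59 (edgeR adjusted p = 1.00). In skin the log2 fold change was 0.11 ± 0.80 (edgeR adjusted p = 1.00), and without Rel-null skin 19 and 20 it was -1.88. The spread within each group was too wide to show that the genotypes act alike.

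Sfrp2 (ENSMUSG00000027996, chromosome 3, 83766321-83774316, plus strand), a relative of Sfrp1 that marks dermal fibroblasts, spread widely within groups. It read 11.2, 178 and 55.6 CPM in Rel-null skin and 11.3 and 1.88 CPM in wild-type skin, the last from 5 counts (95% Poisson interval 0.610 to 4.38 CPM). Lung values were 5.53, 114, 22.6 and 181 CPM in Rel-null and 121, 8.15, 112, 0 and 115 CPM in wild-type libraries. Rel-null skin 18 lay just below wild-type skin 11, so the skin groups overlapped, and the log2 fold change was 3.51 ± 2.01 (edgeR adjusted p = 0.787). Skin over lung was -0.14 ± 1.43 in Rel-null (edgeR adjusted p = 0.991) and -3.54 ± 1.95 in wild-type cultures (edgeR adjusted p = 0.486). Wild-type lung 4, with 0 counts of Sfrp2, is a library with many genes at 0, and an antisense gene, Gm26771, overlaps Sfrp2.

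Sfrp4 (ENSMUSG00000021319, chromosome 13, 19623104-19632994, plus strand), another Wnt-binding antagonist, was low. Skin had 0, 2.36 and 1.17 CPM in Rel-null and 0 and 9.76 CPM in wild-type libraries. Lung had 0, 16.3, 5.21 and 6.39 CPM in Rel-null and 6.27, 2.75, 5.81, 0.0442 and 8.35 CPM in wild-type libraries. The values at or near 0 all fell in the 4 libraries with many genes at 0 counts, and all groups overlapped. Skin over lung was -2.73 ± 2.16 in Rel-null (edgeR adjusted p = 0.585) and -0.32 ± 2.20 in wild-type cultures (edgeR adjusted p = 0.986).

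Frzb (ENSMUSG00000027004, chromosome 2, 80411970-80447625, minus strand), first described as an antagonist in cartilage, averaged 20.4 to 35.9 CPM across the 4 groups. It read 3.70, 29.2 and 28.3 CPM in Rel-null skin and 15.5 and 44.7 CPM in wild-type skin. In lung the values were 22.6, 19.4, 20.8 and 71.4 CPM in Rel-null and 37.7, 27.4, 42.8, 28.2 and 43.4 CPM in wild-type libraries. Rel-null lung 10 stood far above the other Rel-null lung libraries, and all groups overlapped. Log2 fold changes of Rel-null over wild type were -0.46 ± 0.77 in skin and -0.14 ± 0.56 in lung (edgeR adjusted p = 0.974 and 1.00).

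Together the 4 frizzled-related genes summed to 38.9 to 375 CPM in Rel-null skin and 65.7 to 209 CPM in wild-type skin, against 937 to 3837 CPM in Rel-null lung and 1132 to 3246 CPM in wild-type lung. Sfrp1 made up most of the lung sums.

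Dkk2 (ENSMUSG00000028031, chromosome 3, 132085292-132180304, plus strand), a ligand of LRP5 and LRP6, ran the other way. Rel-null skin read 239, 276 and 109 CPM and wild-type skin 30.5 and 189 CPM. Lung read 15.1, 12.6, 16.1 and 39.3 CPM in Rel-null and 12.1, 11.2, 20.0, 29.2 and 30.0 CPM in wild-type libraries. All Rel-null skin libraries were above all lung libraries, whereas wild-type skin 11 was just above the highest wild-type lung library (30.0 CPM) and below Rel-null lung 10. By edgeR Dkk2 rose in Rel-null skin relative to Rel-null lung with a log2 fold change of 3.21 ± 0.58 (adjusted p = 0.00324). The wild-type contrast, 2.15 ± 0.58, missed the threshold (edgeR adjusted p = 0.0582) and rested on 1 library: it was 0.49 without wild-type skin 22 (edgeR adjusted p = 0.673) and 2.89 without wild-type skin 11 (edgeR adjusted p = 0.0213). Those are the extremes over single libraries left out, and the other alternatives gave an adjusted p of 0.00900 to 0.771. For the mean of genotypes it was 2.68 ± 0.41 (edgeR adjusted p = 3.83e-04), and it passed under every alternative run, with 1.79 as the lowest value.

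Dkk2 averaged 208 ± 87.6 CPM in Rel-null skin (SD, n = 3) and 110 ± 112 CPM in wild-type skin (SD, n = 2). The log2 fold change of 1.06 ± 0.69 did not pass (edgeR adjusted p = 0.819), and the groups overlapped. In lung it averaged 20.8 ± 12.4 CPM in Rel-null (SD, n = 4) and 20.5 ± 9.00 CPM in wild-type libraries (SD, n = 5), with a log2 fold change of 0.01 ± 0.49 (edgeR adjusted p = 1.00). Markers of hair follicle dermal papilla (7 genes) summed to 600 to 1363 CPM in Rel-null skin and 198 to 255 CPM in wild-type skin, against 16.9 to 70.1 CPM in Rel-null lung and 0.0442 to 48.6 CPM in wild-type lung. Most of the skin sum was 1 gene, Crabp1, with 544 to 1353 CPM in Rel-null skin and 134 to 140 CPM in wild-type skin. In Rel-null skin 3 of the 7 reached 1 CPM in a library, against 6 of 7 in wild-type skin. Sox2 read 0 to 0.318 CPM in Rel-null skin, against 0 and 30.04 CPM in wild-type skin, and Corin was at 0 in both skin groups. The part of such cells and of keratinocytes in the Dkk2 levels was not tested.

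Dkk3 (ENSMUSG00000030772, chromosome 7, 112116017-112159057, minus strand), the divergent member of the Dickkopf family, averaged 101 to 179 CPM across the 4 groups. Skin read 44.5, 155 and 129 CPM in Rel-null and 46.8 and 189 CPM in wild-type libraries. Lung read 56.4, 93.6, 105 and 148 CPM in Rel-null and 239, 126, 145, 210 and 176 CPM in wild-type libraries. Rel-null lung 7, 8 and 9 lay below all wild-type lung libraries, and Rel-null lung 10 lay among them. The Rel-null over wild-type log2 fold change in lung was -0.87 ± 0.43 (edgeR unadjusted p = 0.0599, adjusted p = 0.793) and in skin 0.01 ± 0.57 (edgeR adjusted p = 1.00). Skin over lung was -0.01 ± 0.48 in Rel-null and -0.89 ± 0.55 in wild-type cultures (edgeR adjusted p = 1.00 and 0.557).

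Wif1 (ENSMUSG00000020218, chromosome 10, 121033960-121100650, plus strand), the Wnt inhibitory factor, was near the limit of detection. It had 0 counts in 11 of 14 libraries, among them all 3 of Rel-null skin. Counts were 5 in wild-type skin 22 (1.88 CPM, 95% Poisson interval 0.610 to 4.38), 17 in Rel-null lung 10 (0.817 CPM, 0.476 to 1.31) and 6 in wild-type lung 1 (0.235 CPM, 0.0863 to 0.512). In the libraries at 0, 3 counts would be 0.0968 to 0.235 CPM, and intervals and floors cover counting error only. Wild-type skin 22 and wild-type lung 1 are the Xist-reading libraries, and Rel-null lung 10 is the one with the skin treatment label. All skin counts came from wild-type skin 22, and the contrast of genotypes in skin did not pass (edgeR adjusted p = 0.784).

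**Figure D2:**
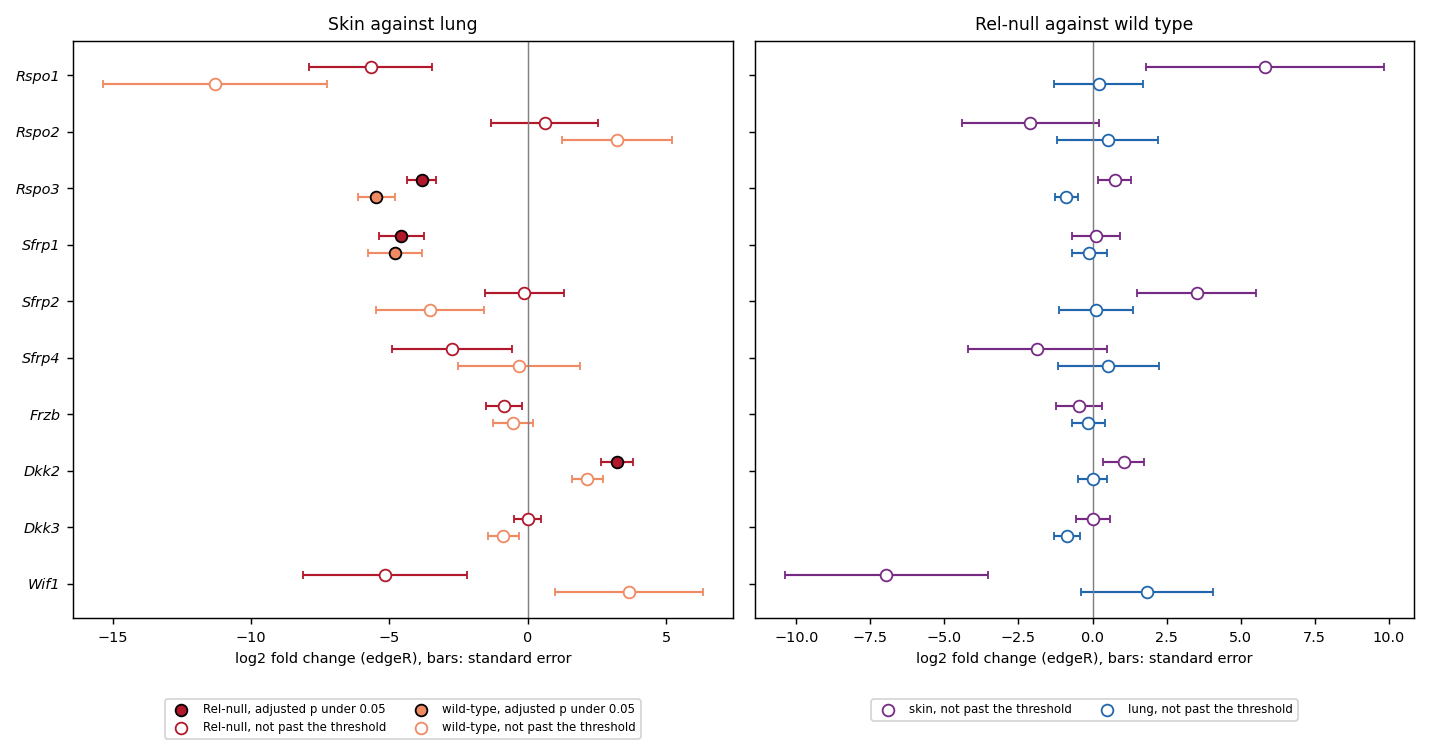
Log2 fold change of each gene by edgeR, with bars for 1 standard error, for skin over lung in Rel-null and wild-type cultures (left) and for Rel-null over wild type in skin and lung (right). Filled points pass an adjusted p of 0.05: Rspo3 and Sfrp1 in both genotypes and Dkk2 in Rel-null cultures on the left, and none on the right. Fitted values of Rspo1 and Wif1 that involve a group at 0 counts are no measure of size.

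In the comparison of genotypes none of the 10 passed in lung, in skin or in the difference between tissues, and 0.0% of all genes did. At an unadjusted p under 0.05, edgeR gave 1 of 10 in lung (Rspo3; 6.31% of all genes), 0 of 10 in skin (6.24%) and 2 of 10 for the difference (Rspo3 and Wif1; 4.67%). DESeq2 also called 0 of 10 in each, where it called 0.311%, 0.884% and 0.603% of all genes in lung, in skin and for the difference. Limma-voom, run with library quality weights, called 0 of 10 as well, where it called 0.0366%, 1.83% and 1.06% of all genes. Of the 10, 6 were higher and 4 lower in Rel-null lung, and likewise 6 and 4 in Rel-null skin. Their median log2 fold changes were 0.06 in lung and 0.06 in skin, where the medians of all genes were -0.08 and 0.01. The ranges of Rel-null and wild-type libraries overlapped for 10 of 10 in lung, where 2.29% of all genes did not overlap. The common dispersion across genes was 0.948, and how large a difference between genotypes had to be to pass was not tested.

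Per kilobase of exon, the order of levels differed between the tissues. In lung Sfrp1 led with a median of 436 CPM per kb in Rel-null and 484 CPM per kb in wild-type cultures, above Rspo3 at 41.5 and 68.1 CPM per kb with no overlap of their ranges. Below Rspo3 came Sfrp2 and Dkk3, whose ranges overlapped with it and with each other. In Rel-null skin Dkk2 led with 64.4 CPM per kb, followed by Dkk3 with 38.4, Sfrp2 with 25.8 and Sfrp1 with 22.1 CPM per kb. In wild-type skin Dkk3 led with 35.1 CPM per kb, followed by Dkk2 with 29.6 and Sfrp1 with 21.9 CPM per kb. Neighbours in the order overlapped in their ranges except for Rspo3 over Rspo2 in Rel-null skin, Sfrp1 over Rspo3 in both lung groups and Dkk2 over Sfrp4 in wild-type lung.

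Of the summed level of the 10 genes per kilobase, Sfrp1 took 6.02 to 17.0% in Rel-null skin and 19.9 to 21.3% in wild-type skin, against 63.4 to 80.8% in Rel-null lung and 57.5 to 78.4% in wild-type lung. Dkk2 took 22.5 to 70.6% in Rel-null skin and 18.4 to 31.04% in wild-type skin, against 0.423 to 1.44% in Rel-null lung and 0.366 to 1.80% in wild-type lung. The highest Dkk2 share was that of Rel-null skin 18, a library with many genes at 0 counts, and the other Rel-null skin libraries, at 22.5 and 29.2%, lay within the wild-type skin range. The tissues did not overlap for either gene. Rspo3 took 1.04 to 3.96% in Rel-null skin and 1.48 to 3.57% in wild-type skin, against 3.08 to 18.6% in Rel-null lung and 3.91 to 26.4% in wild-type lung. A share falls when another gene's level is high, so these values describe the mixture and are not further evidence on single genes.

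**Figure D3:**
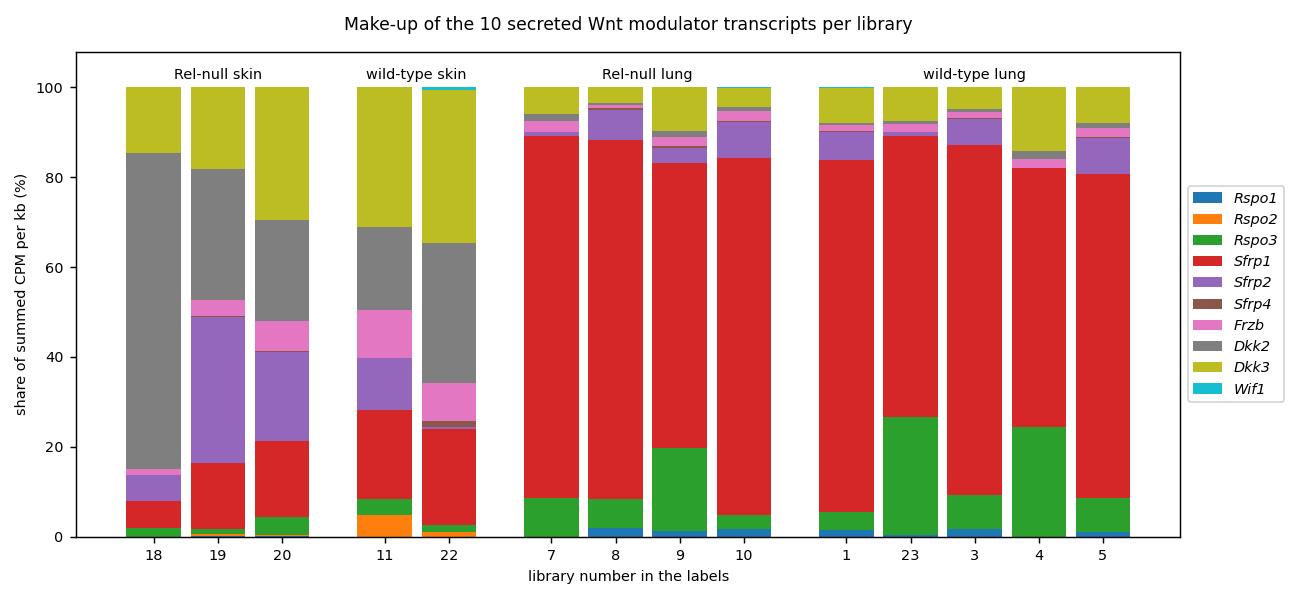
Make-up of the summed level of the 10 genes (CPM per kb of exon) in each library, as percent, with skin libraries on the left and lung on the right. Sfrp1 fills 57.5 to 80.8% of each lung library, against 6.02 to 21.3% of each skin library, and Dkk2 fills 18.4 to 70.6% of each skin library, against 0.366 to 1.80% of each lung library.

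The wider Wnt pathway was read from a list of 86 genes outside the 10, of which 70 were tested. For Rel-null skin over Rel-null lung, 1 of 70 rose (Wnt7a, edgeR adjusted p = 0.0489) and 1 fell (Igfbp4). For wild-type cultures 0 rose and 1 fell (Igfbp4), and for the mean of genotypes 5 rose and 4 fell. Called genes were 2.86% of the list in Rel-null, 1.43% in wild-type cultures and 12.9% for the mean of genotypes, against 5.05%, 2.97% and 10.4% of all genes. The list's median log2 fold change was 0.01 in Rel-null and -0.23 in wild-type cultures, where the medians of all genes were -0.01 and -0.13. Igfbp4, a secreted binding protein reported to antagonise Wnt receptors, read 20.3 to 70.3 CPM in skin (median 45.1, n = 5) and 880 to 4401 CPM in lung (median 2707, n = 9), with log2 fold changes of -5.81 ± 0.82 in Rel-null (edgeR adjusted p = 4.23e-04) and -6.55 ± 1.02 in wild-type cultures (edgeR adjusted p = 0.00180). Wnt7a, a ligand made by epidermis, read 0 to 17.4 CPM in skin and 0 counts in all 9 lung libraries, and for the mean of genotypes it passed with an edgeR adjusted p of 0.0407. It had 23, 120 and 223 counts in Rel-null skin, against 1 and 0 counts in wild-type skin. It averaged 8.63 ± 8.37 CPM in Rel-null skin (SD, n = 3) and 0.0215 ± 0.0304 CPM in wild-type skin (SD, n = 2), and the higher group is that with the keratinocyte markers, whose part was not tested. Both Wnt7a calls hung on single libraries. Leaving out any 1 of Rel-null skin 18, 19 or 20, Rel-null lung 8, 9 or 10, or wild-type lung 23, 3 or 5 ended the Rel-null call (highest edgeR adjusted p = 0.175), and leaving out wild-type skin 11 gave 1.00 for the mean of genotypes.

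Receptors and feedback genes made up most of the other calls for the mean of genotypes. Lgr6, an R-spondin receptor, read 13.5 to 157 CPM in skin and 0 to 13.02 CPM in lung (edgeR log2 fold change 4.27 ± 1.18, adjusted p = 0.0290). It averaged 123 ± 30.3 CPM in Rel-null skin (SD, n = 3) but 15.4 ± 2.66 CPM in wild-type skin (SD, n = 2). The higher group is that with the higher sum of keratinocyte markers, whose part was not tested. Lgr4, the more widely expressed R-spondin receptor, had a log2 fold change of 1.78 ± 0.46 (edgeR adjusted p = 0.0209). Ror1, a receptor for noncanonical Wnts, was lower in skin by edgeR (-3.80 ± 0.82, adjusted p = 0.00640), and so was Gpc3, a glypican (-6.48 ± 1.61, adjusted p = 0.0162). The feedback inhibitors Nkd1 and Nkd2 moved in opposite directions. Nkd1 read 0 to 4.30 CPM in skin and 12.4 to 50.6 CPM in lung (edgeR -5.04 ± 1.08, adjusted p = 0.00630), whereas Nkd2 read 29.8 to 231 CPM in skin and 0 to 29.7 CPM in lung (edgeR 3.72 ± 0.89, adjusted p = 0.0125). Draxin, a secreted antagonist known from axon guidance, rose as well (edgeR 5.27 ± 1.21, adjusted p = 0.0102).

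Of these 9 calls, Igfbp4 and Nkd2 passed under every alternative run. Leaving out wild-type skin 11 ended 6 of the others by edgeR, with Draxin at 2.62 (adjusted p = 0.297), Gpc3 at -5.58 (0.111), Lgr4 at 1.56 (0.114), Lgr6 at 4.29 (0.0595), Nkd1 at -4.32 (0.0532) and Wnt7a at 5.18 (1.00). Lgr4 and Lgr6 also missed the threshold without Rel-null skin 19 (edgeR adjusted p = 0.0786 and 0.0563) or 20 (0.0529 and 0.0686), and Lgr6 without Rel-null lung 10 (0.0630). Draxin and Gpc3 did not pass under all of the alternatives that keep every library or drop several. Over these, log2 fold changes ran from 2.36 to 6.59 for Draxin and from -10.32 to -5.52 for Gpc3. Without both Rel-null skin 19 and 20, Lgr4 was 0.15 (edgeR adjusted p = 0.950), Lgr6 4.13 (0.141), Ror1 -3.94 (0.0618) and Wnt7a 4.78 (0.162). Over single libraries left out the edgeR adjusted p of Lgr4 ran from 6.22e-04 to 0.114, that of Lgr6 from 0.00356 to 0.0686, that of Draxin from 0.00359 to 0.297, that of Gpc3 from 0.00198 to 0.111 and that of Nkd1 from 0.00111 to 0.0532.

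Between genotypes 0 of 70 passed in lung, in skin or for the difference, with 4, 3 and 1 at an unadjusted p under 0.05. Those are 5.71%, 4.29% and 1.43% of the list, against 6.31%, 6.24% and 4.67% of all genes, and the genes named next are those of lowest p in it. The lowest in lung were Ctnnbip1, an inhibitor of beta-catenin and TCF binding (1.21 ± 0.48), Wnt10b (5.77 ± 2.54, and -1.36 without Rel-null lung 7) and Dvl1, which relays frizzled signals (-0.86 ± 0.38), all with an edgeR adjusted p of 0.781. In skin they were Tcf7l2, a TCF transcription factor (-1.94 ± 0.66, edgeR adjusted p = 0.664), Wnt7b (8.87 ± 3.43, adjusted p = 0.730) and Wnt7a (7.74 ± 3.18, adjusted p = 0.784). For the difference they were Tcf7l2 (-1.99 ± 0.82), Rnf43 (10.25 ± 4.88) and Wnt10b (-7.00 ± 3.82), all with an edgeR adjusted p of 1.00. Rnf43 was at 0 in both wild-type skin libraries, and Wnt7a and Wnt7b averaged 0.0215 and 0.0430 CPM in wild-type skin and Wnt10b 0.0106 CPM in wild-type lung, so their fitted values are no measure of size.

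**Figure D4:**
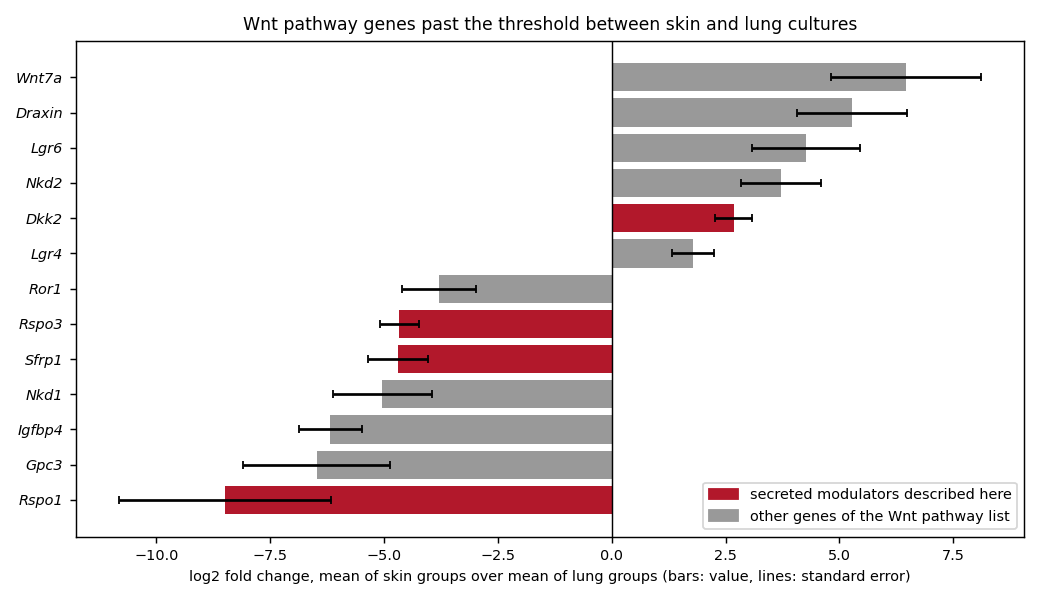
Log2 fold change of skin over lung by edgeR for the mean of genotypes, as horizontal bars with lines for 1 standard error, for every gene of the 10 (red) or of the Wnt pathway list (grey) that passed an adjusted p of 0.05. Dkk2 and 5 genes of the list lie on the higher side, and Rspo1, Rspo3, Sfrp1 and 4 genes of the list on the lower side. Bars of Rspo1 and Wnt7a are fitted values that involve a group at 0 counts.

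The genes whose pattern over the 14 libraries was most like that of each member were found from the mean absolute difference in log2 CPM after centring each gene on its own mean, as a description without a test. For Sfrp1 they were Ogn (0.39) and Podn (0.44), 2 small leucine-rich proteoglycans, where the median over all genes was 2.30. Ogn read 7.22 to 41.4 CPM in Rel-null and 3.96 to 42.1 CPM in wild-type skin, against 272 to 727 CPM in Rel-null and 331 to 863 CPM in wild-type lung. For Dkk2 they were Thy1 (0.40), a fibroblast surface protein, and Galnt17 (0.50), where the median was 1.62. Thy1 read 786 to 1215 CPM in Rel-null and 561 to 1308 CPM in wild-type skin, against 95.8 to 258 CPM in Rel-null and 83.7 to 250 CPM in wild-type lung.

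Rspo1 was nearest to Tbx5 (0.62), a transcription factor of lung mesenchyme, and Adora2a (0.75), with a median of 3.53 over all genes. Tbx5 read 0 to 0.828 CPM in Rel-null skin, 0 in wild-type skin, 0 to 12.2 CPM in Rel-null lung and 0 to 23.1 CPM in wild-type lung. Rspo3 was nearest to Rasl11a (0.71) and Plod2 (0.73), a collagen lysyl hydroxylase, and Rspo2 to Lrrc73 (0.87) and Pcdhga5 (0.94). The other nearest pairs were Rtn2 (1.14) and Vmac (1.34) for Sfrp2, Dmtn (0.55) and Gm13375 (0.57) for Sfrp4, Sspn (0.40) and Dcps (0.40) for Frzb, Sgce (0.29) and Pogz (0.30) for Dkk3, and Gad2 (0.42) and Slc25a21 (0.44) for Wif1. For genes with many values at 0, likeness also reflects which libraries had 0 counts.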

How the data were processed

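RNA-seq was made from 14 libraries of explant-cultured mouse fibroblasts with a directional kit, per the labels' protocols. The authors deposited raw read counts per Ensembl gene in 1 table. STAR 2.4.2a, Trimmomatic 0.33, FastQC 0.11.2 and the build GRCm38 appear in the submitters' processing notes. The annotation release, the counter and whether it used strand are not given in the material used here, so overlapping antisense genes are uncertain. GENCODE M21 gave symbols and coordinates for 48435 of 48795 identifiers.

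Counts were tested with edgeR 4.0.16 in R 4.3.3: a low-count filter by filterByExpr (total of at least 15, count of at least 10), TMM scaling, 1 quasi-likelihood fit of 14 libraries with 4 group means, and Benjamini-Hochberg adjustment over 16408 genes at 0.05. CPM are on raw library totals. Mean log2 CPM used a prior count of 1. Counting error alone enters the Poisson intervals (95%) and the 3-count floor. The fit was run on simulated counts with set changes between skin and lung only, and the outcome is not given here. Alternatives were RLE factors, other low-count filters, DESeq2 1.42.0, limma-voom with library quality weights (limma 3.58.1), each library left out, doubted libraries left out, only the groups compared and, chosen after seeing the data, library totals.

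All 10 genes are named. Of the pathway list, genes that passed, or otherwise the 3 of lowest p, are named, with the 2 genes most alike each member. Members, lists and tests were chosen with earlier results of these data known.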

Additional observations from a re-analysis of the deposited data

Results flagged for a closer look

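Groups of 4 or 5 lung libraries were examined for a library far from the rest of its group by Dixon's criterion. Of 20 groups, 5 gave one. The nominal rate of about 1 in 20 assumes independent, normally distributed values. These groups hold CPM of the same lung libraries, some near 0, so that rate is at most a rough guide. In both Wif1 groups every other library was at 0, so any library with reads meets the criterion and that rate does not apply. Skin groups of 3 and 2 were not examined. Rel-null lung 10 was high for Frzb (71.4 CPM, the others 19.4 to 22.6), for Dkk2 (39.3 CPM, the others 12.6 to 16.1) and for Wif1 (0.817 CPM, the others 0). Its treatment label says skin. Its Rspo3 (98.1 CPM) was within the range of the other lung libraries and above all skin values, and its Sfrp1 (3578 CPM) was above every other library. Both genes were compared between tissues with this library counted as lung, so they do not settle its tissue. Its leukocyte and macrophage markers summed to 21114 CPM, against at most 144 CPM in any skin library. Its tissue was not tested. Wild-type lung 1, which reads Xist, was high for Rspo2 (3.02 CPM, the others 0 to 0.549) and for Wif1 (0.235 CPM from 6 counts, the others 0).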

How the results depend on the processing

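No paired analysis was possible because the labels do not tie libraries to animals, so whether skin and lung libraries share mice is unknown. No alternative made any of the 10 genes pass between genotypes, and Rspo3, Sfrp1 and Dkk2 passed for the mean of genotypes under every alternative run. The number of genes passing in wild-type skin over lung was 2, but 4 without a low-count filter and with DESeq2, and 1 with limma-voom; with single libraries left out it was 2 to 3. The causes were not tested. Dkk2 in wild-type cultures passed under RLE factors (edgeR adjusted p = 0.0497), library totals (0.0335), no filter (0.00900), DESeq2 (0.0133) and without the 4 libraries with many genes at 0 (0.0110), but was 0.36 without the Xist-reading libraries. Rspo1 passed in Rel-null cultures with DESeq2, limma-voom and without those 4 libraries (adjusted p = 0.0139, 0.0261 and 0.00769, where single libraries left out gave 0.0627 to 0.407 and 0.287 was the highest of the other alternatives), and Sfrp4 passed for the mean of genotypes with limma-voom (-4.12, adjusted p = 0.0390). Of the pathway list (70 genes tested, 60 to 78 under the alternatives), counts passing moved as follows, beside the share of all genes called. In wild-type skin over lung, 1 passed (2.97%), but 6 without a filter (3.25%), 5 with DESeq2 (7.44%), 3 with limma-voom (4.03%), 3 without Rel-null skin 19 and 20 (2.32%), and 4 without the 4 libraries (4.91%), without the Xist-reading libraries (5.95%) or in the fit of those groups only (2.91%). In Rel-null skin over lung, 2 passed (5.05%), but 7 without a filter (4.34%), 8 with DESeq2 (10.8%), 27 with limma-voom (27.4%), 10 without the 4 libraries (12.4%) and 4 without the Xist-reading libraries (6.2%). For the mean of genotypes 9 passed (10.4%), but 15 with limma-voom (17.2%), 16 without the 4 libraries (14.9%) and 5 without Rel-null skin 19 and 20 (5.77%). Between genotypes in skin, and for the difference between tissues, 0 passed, but 2 without the Xist-reading libraries, where 2.50% and 2.08% of all genes passed (Fzd6 and Ror1, named after their values were seen). Single libraries left out gave 1 to 5 in wild-type, 1 to 6 in Rel-null and 4 to 13 in the mean of genotypes, and 0 to 2 for genotype in skin and for the difference, where the 2 came without wild-type skin 22. Library totals moved the median log2 fold change of all genes in wild-type skin over lung to 0.08, against -0.13 with TMM.

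Directions that turned belong to log2 fold changes that did not pass. In lung, Rel-null over wild type, without the Xist-reading libraries, Sfrp1 was 0.12 and Dkk2 -0.11, and with limma-voom Dkk2 was -0.28. In skin, without Rel-null 19 and 20, Rspo3 was -0.0423, Sfrp1 -1.88 and Dkk3 -1.29. With limma-voom Sfrp4 was 3.49 and Frzb 0.49, and without the Xist-reading libraries 7.60 and 0.37. Dkk3 there was -0.0675 with RLE, -0.10 with totals, -0.0694 with DESeq2, -0.18 without the 4 libraries and -0.0161 in the fit of skin only. For skin over lung in wild-type cultures, Sfrp4 was 0.0437 with totals and 0.38 without the 4 libraries. In Rel-null cultures Rspo2 was -7.89 without 19 and 20, Sfrp2 was 0.012 with totals, 0.0679 with limma-voom and 0.0298 without the 4 libraries, and Dkk3 was 0.12 with totals, 0.0246 without a filter, 0.027 with a filter of 1 CPM in 2 libraries, 0.18 with limma-voom, 0.19 without the 4 libraries and 0.0126 without the Xist-reading libraries. For the mean of genotypes Rspo2 was -2.33 without 19 and 20, and Wif1 0.73 with limma-voom. Wnt10b in lung by genotype was -1.48 without the 4 libraries, and its difference between tissues was 2.05 with limma-voom and 0.86 without the Xist-reading libraries.

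With single libraries left out, the log2 fold changes that turned ran as follows. In lung by genotype they were Rspo1 -0.32 to 0.63, Rspo2 -0.28 to 2.06, Sfrp1 -0.52 to 0.16, Sfrp2 -0.66 to 0.51, Sfrp4 -0.32 to 0.96, Frzb -0.85 to 0.0483, Dkk2 -0.53 to 0.20 and Wnt10b -1.36 to 7.15. In skin by genotype they were Sfrp1 -0.58 to 1.24, Sfrp4 -2.93 to 7.57, Frzb -0.93 to 0.33 and Dkk3 -0.58 to 1.17. For wild-type skin over lung they were Sfrp4 -9.76 to 0.70 and Wif1 -3.40 to 6.96, and for Rel-null skin over lung Rspo2 -0.78 to 1.39, Sfrp2 -1.47 to 0.63 and Dkk3 -0.38 to 0.40. For the mean of genotypes Wif1 ran from -4.32 to 0.91, and for the difference between tissues Wnt10b ran from -8.31 to 0.71. A skin group left with 1 library was assumed to vary like the others, and settings that left both groups at 0 gave no value (Rspo1 and Wif1 in skin). Wild-type skin 22, with the fewest counts, limits what can be seen of Rspo1, Sfrp4 and Wif1.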
